A study of Mus musculus with 6 samples.

Results

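The genes described here are 10 regulators of mitochondrial content in C2C12, an established line of mouse myoblasts whose cells fuse to myotubes when serum is lowered. They are the PGC-1 coactivators Ppargc1a, Ppargc1b and Pprc1, the estrogen-related receptors Esrra and Esrrg, the fatty acid receptors Ppara and Ppard, and the factors Nrf1, Gabpa and Tfam. They were chosen by name from the gene symbols of the deposited count table, and all 10 are among its 24421 symbols. The knockdown cultures carried a lentiviral short hairpin RNA against Gaa (shGAA, 3 libraries). The control cultures carried a scrambled hairpin (shScrambled, 3 libraries). Both were selected with puromycin and differentiated with 2% horse serum at a glucose concentration of 4.5 g/l, and all titles contain the word Fed, which the labels do not explain. The series is about glycophagy, in which autophagy brings glycogen to lysosomes and the enzyme encoded by Gaa degrades it. The labels give neither the number of hairpins nor the origin of the replicates (separate cultures or 1 culture), so p-values reflect the spread between libraries alone, and that spread may be technical.

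PGC-1 coactivators bind no DNA themselves. They are recruited by nuclear receptors and other factors, and raise transcription of genes for fatty acid oxidation and respiration. Estrogen-related receptors and PPARs are such partners, and so are nuclear respiratory factor 1 (Nrf1) and the GA-binding protein (Gabpa encodes its DNA-binding subunit), which act on nuclear genes of the respiratory chain. Tfam enters the mitochondrion, packages its DNA and starts its transcription. In skeletal muscle Ppargc1a is known for its induction by exercise, calcium signals and cyclic AMP.

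The promoters of 9 members were taken from the RefSeq sequences (GRCm38.p6, the assembly also called mm10), with 13 starts in all. That of Ppargc1b was left out of the search, so its absence here does not mean that RefSeq lacks a start for it. In the 250 bases before each start, both strands were searched for the cyclic AMP response element TGACGTCA, the estrogen-related receptor element TCAAGGTCA, the NRF1 core GCATGCGC and the ETS site CCGGAAGT that GABP binds. Of 32851 promoters of the same length, 1.55%, 0.387%, 2.26% and 2.88% held these words. Below are the stretches with a match, shown because they are the members whose promoter carries a word for another member, and the 100 bases before the start of Ppargc1a, the member with the smallest adjusted p. Capitals mark the matches, and each line runs 5′ to 3′ on the gene's strand.
Ppargc1a, chr5:51567726-51567825, minus strand: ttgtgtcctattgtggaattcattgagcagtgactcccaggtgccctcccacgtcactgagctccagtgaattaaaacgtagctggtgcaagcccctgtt
Ppara, chr15:85735735-85735764, plus strand: gggctcggtgGCGCATGCGCgcggactagg
Esrra, chr19:6921824-6921853, minus strand: ccccctgttttGCATGCGCaggccggcccc
Tfam, chr10:71238073-71238102, minus strand: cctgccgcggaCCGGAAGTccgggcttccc

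The Ppara stretch holds the NRF1 word on both strands, at overlapping positions that begin 29 and 31 bases before the start. In Esrra the NRF1 word begins 34 bases before the start, and in Tfam the ETS word begins 47 bases before it. All 30 bases shown for Tfam lie in an exon of a longer Tfam transcript in GENCODE M21. None of these letter words occurs in the 250 bases before the start of Ppargc1a, Gabpa, Ppard or Pprc1, nor before the starts of Nrf1 and Esrrg. A match of letters is not a binding site, and binding was not measured here. Only exact words were searched, so a missing word does not mean that a site is absent.

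The libraries held 9224038 to 10430270 counts. Gaa, the target of the hairpin, had 469, 445 and 552 counts in shGAA and 1033, 1158 and 1119 counts in shScrambled, a log2 fold change of -1.25 ± 0.07 (SE, n = 3 per group). Within shScrambled, replicate 1 lay farthest from its 2 companions, with a root-mean-square log2 difference of 0.27 over the tested genes, against 0.189 to 0.23 for the other 5 libraries. Of 11801 tested genes, 38.2% were called at an adjusted p under 0.05 in edgeR's quasi-likelihood test with Benjamini-Hochberg adjustment, 18.5% higher in shGAA and 19.7% lower. Higher genes made up 48.4% of the calls, and 60.0% with scaling by library size alone.

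Ppargc1a and Ppara rose in shGAA, Ppard and Nrf1 fell slightly, and the other 5 tested members had no call. Esrrg was too low to test. The 2 rises and 2 falls among 9 tested members, or 22.2% in each direction, stand beside the 18.5% and 19.7% of all tested genes. In the same members the libraries of the groups did not overlap. Such separation was common, with every shGAA library above every control in 24.7% of all tested genes and below in 24.9%. Ppargc1a and Ppara passed the filter on low counts, which asks for about 1.04 CPM (counts per 1000000) in 3 libraries, through shGAA. Of the libraries over that level, 3 were shGAA and 1 was shScrambled for Ppargc1a, and 3 were shGAA and 0 were shScrambled for Ppara. Genes this low that enter the test in such a way are more likely to differ, and both are therefore also given without the filter.

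Ppargc1a encodes PGC-1alpha, the founding member of the coactivator family, and lies on chromosome 5 at 51454250 to 51567726 (GENCODE M21, GRCm38). It had 54, 33 and 45 counts in shGAA 1 to 3, against 8, 8 and 18 counts in shScrambled 1 to 3. This is 5.52, 3.52 and 4.23 CPM in shGAA and 0.822, 0.859 and 1.92 CPM in shScrambled. The lowest shGAA library was above the highest shScrambled library, shScrambled 3, which stood above both other controls. The means were 4.42 ± 1.01 CPM in shGAA and 1.20 ± 0.624 CPM in shScrambled (SD, n = 3 each). The log2 fold change was 1.88 ± 0.31 (SE, adjusted p = 0.000158), a 3.67-fold rise, which 33 called genes exceeded. Summed counts of 132 in shGAA and 34 in shScrambled, scaled for library size, gave a ratio of 3.70 with a 95% exact interval of 2.52 to 5.57 for counting error only. The log2 fold change was 1.88 (adjusted p = 1.42e-09) without the filter on low counts, and 2.38 without shScrambled 3. The smaller adjusted p without the filter comes from the same libraries at an equal fold change, and why it differs was not tested.

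The related coactivators had no call. Ppargc1b, which encodes PGC-1beta and lies on chromosome 18, had 5.72, 4.16 and 4.89 CPM in shGAA and 4.01, 4.19 and 4.38 CPM in shScrambled. These groups overlapped, since shGAA 2 fell among the controls. Its log2 fold change was 0.23 ± 0.19 (adjusted p = 0.358), and the 95% counting interval of its ratio ran from 0.919 to 1.51. Pprc1, which encodes the PGC-1-related coactivator PRC and is known to respond to growth signals, had 91.5, 98.5 and 91.5 CPM in shGAA and 108, 93.0 and 89.0 CPM in shScrambled. The control shScrambled 1 was its highest library, and the groups overlapped. Its log2 fold change was -0.05 ± 0.07 (adjusted p = 0.625). The differences between these fold changes and that of Ppargc1a were not tested.

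**Figure D1:**
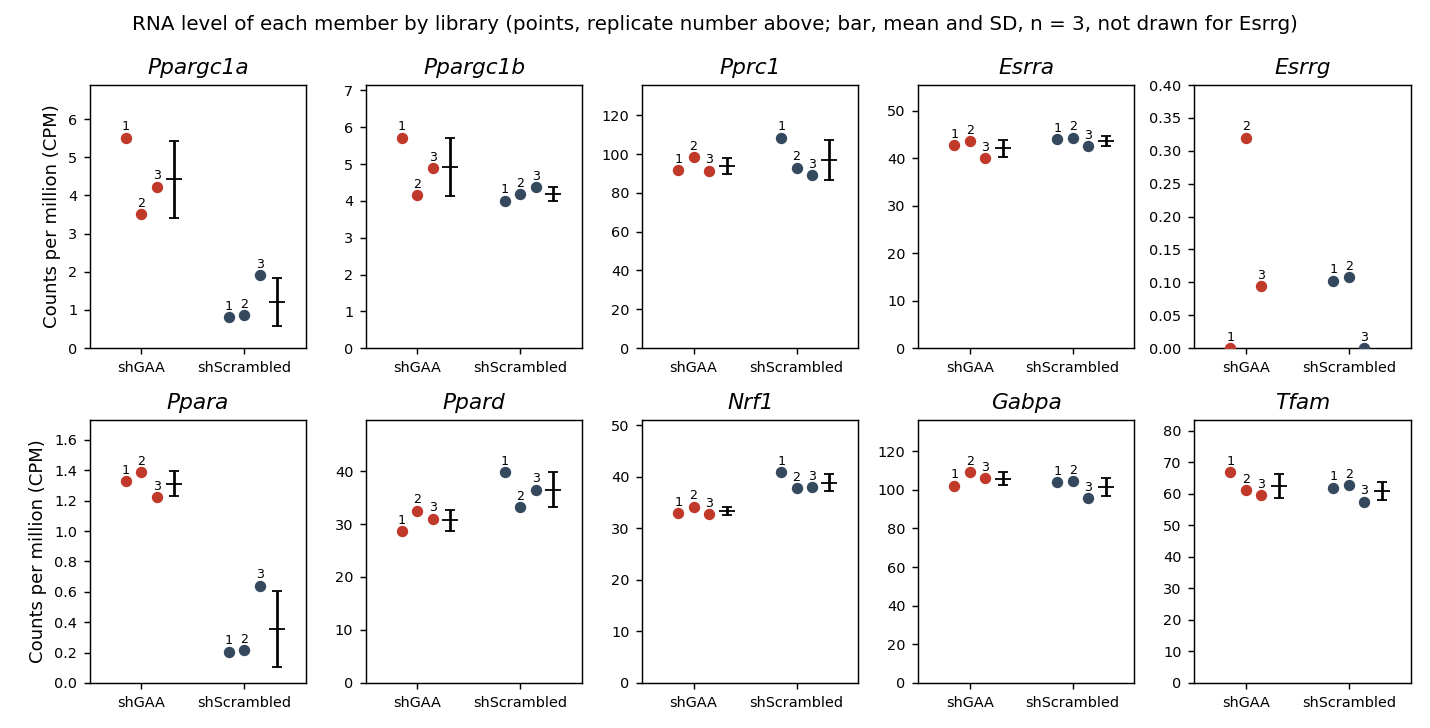
CPM of each member (vertical axes, each from 0 and with its own scale) in the 3 shGAA libraries (red, left) and the 3 shScrambled libraries (dark, right), with replicate numbers and, except for Esrrg, the mean and SD. In Ppargc1a and Ppara every shGAA library lies above every shScrambled library, and in Ppard and Nrf1 every shGAA library lies below. Of all tested genes, 24.7% had every shGAA library above and 24.9% every shGAA library below.

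Ppara encodes the receptor that drives fatty acid oxidation genes in liver, heart and muscle, and lies on chromosome 15 at 85734983 to 85802819. It had 13 counts in each shGAA library, against 2, 2 and 6 counts in shScrambled 1 to 3. In CPM this is 1.31 ± 0.0837 CPM in shGAA and 0.354 ± 0.248 CPM in shScrambled (SD, n = 3 each). The groups did not overlap, and shScrambled 3 was again the highest control. The log2 fold change was 1.86 ± 0.48 (SE, adjusted p = 0.00579), a 3.62-fold rise from very few reads. Summed counts of 39 in shGAA and 10 in shScrambled gave a ratio of 3.72, with 1.82 to 8.35 as its counting interval. Without shScrambled 3 the log2 fold change was 2.57, and without the filter it was 1.86 (adjusted p = 0.00253). Off the log scale, the fold without shScrambled 3 was over 1.5 times that with all libraries.

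Ppard encodes PPARdelta, the predominant PPAR of skeletal muscle, and moved the other way. It had 28.6, 32.5 and 31.0 CPM in shGAA, against 39.8, 33.2 and 36.5 CPM in shScrambled. The highest shGAA library, shGAA 2, was just under the lowest control, shScrambled 2. The log2 fold change was -0.25 ± 0.09 (SE, adjusted p = 0.0314), to 84.1% of the control level. This call ended in 7 of 13 alternative fits, among them DESeq2 (adjusted p = 0.0957) and scaling by library size alone (adjusted p = 0.0775). Leaving out 1 library ended it for shGAA 1 (adjusted p = 0.140), shGAA 3 (0.0715), shScrambled 1 (0.102) and shScrambled 3 (0.0736).

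The estrogen-related receptors showed no call. Esrra, whose product ERRalpha is a main partner of PGC-1alpha on respiratory chain genes, had 42.7, 43.5 and 39.9 CPM in shGAA and 44.0, 44.4 and 42.5 CPM in shScrambled. The groups overlapped within a narrow range, with a log2 fold change of -0.05 ± 0.07 (adjusted p = 0.577). Esrrg, which encodes ERRgamma of oxidative muscle and heart, had 0, 3 and 1 counts in shGAA and 1, 1 and 0 counts in shScrambled. A difference in Esrrg was not detectable at this depth.

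Nrf1, the nuclear respiratory factor gene, fell in shGAA by a small amount. It had 32.9, 34.2 and 32.8 CPM in shGAA, against 40.9, 37.8 and 38.0 CPM in shScrambled. All shGAA libraries were below all controls, and shScrambled 1 was the highest. The log2 fold change was -0.22 ± 0.07 (SE, adjusted p = 0.0248), to 85.6% of the control level. The call ended in 5 of 13 alternative fits, with an adjusted p of 0.105 in DESeq2, 0.0691 with scaling by library size alone, 0.0813 and 0.0769 without shGAA 1 and shGAA 3, and 0.0714 without shScrambled 1.

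Gabpa and Tfam, the remaining factors, had no call. Gabpa had 102, 109 and 106 CPM in shGAA and 104, 104 and 95.9 CPM in shScrambled, a log2 fold change of 0.06 ± 0.06 (adjusted p = 0.430). Over 6.98% of its exonic bases it overlaps Atp5j on the opposite strand, and whether the counting used strand is not given in the sources used here. Tfam had 66.8, 61.1 and 59.7 CPM in shGAA and 62.0, 62.8 and 57.5 CPM in shScrambled, a log2 fold change of 0.04 ± 0.07 (adjusted p = 0.656). In both genes the libraries of the groups interleaved.

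**Figure D2:**
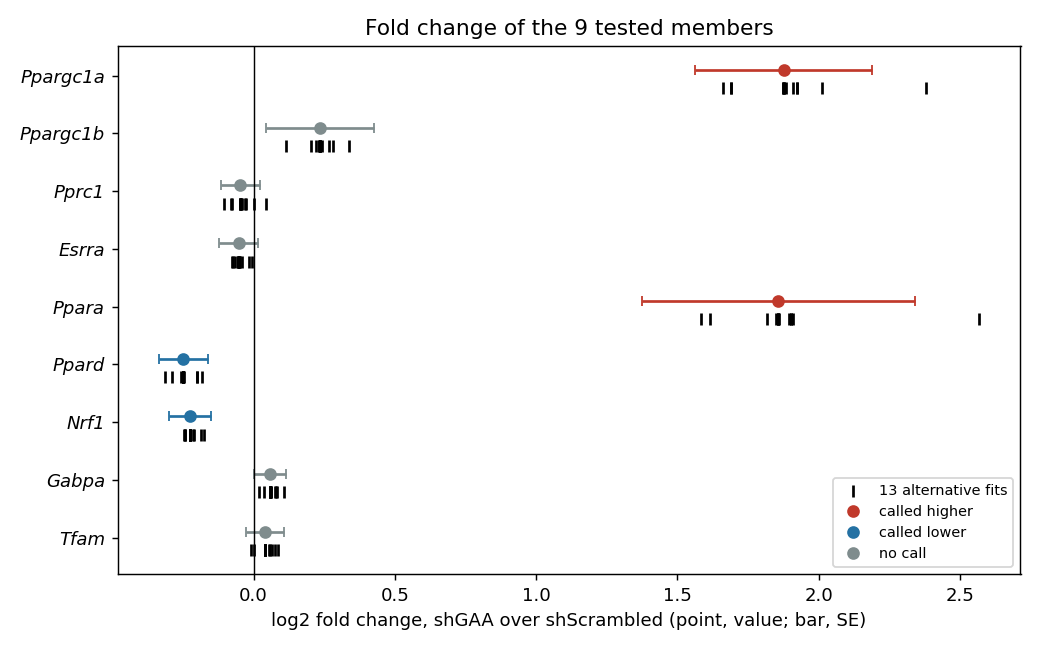
Log2 fold change of shGAA over shScrambled (horizontal axis) for the 9 tested members, with the SE as a bar, coloured by call, and 13 alternative fits as ticks beneath. Ppargc1a and Ppara stand at 1.88 and 1.86 while the other 7 lie between -0.25 and 0.23.

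Divided by exon length, the members spanned a wide range of levels, and the order of the means was the same in both groups. The scale here is CPM per kilobase of all GENCODE M21 exons of a gene, which can be longer than the transcript the cells use. In shGAA Gabpa was highest at 18.6 ± 0.607, followed by Pprc1 at 14.9 ± 0.641 and Tfam at 14.1 ± 0.845, whose libraries overlapped. Esrra stood at 9.59 ± 0.428, Ppard at 4.09 ± 0.264 and Nrf1 at 3.24 ± 0.0789, with no overlap between neighbours. Ppargc1b (1.23 ± 0.196), Ppargc1a (0.671 ± 0.154), Ppara (0.342 ± 0.0218) and Esrrg followed. In shScrambled Gabpa, at 17.8 ± 0.858, overlapped Pprc1, at 15.4 ± 1.63. There Ppargc1a, at 0.125 to 0.292 per kilobase, and Ppara, at 0.0535 to 0.167, overlapped as well, whereas in shGAA they did not.

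Within the coactivator family the level of RNA per exon length was mostly that of Pprc1. Of the summed level of the 3 coactivators, Ppargc1a made up 3.10% to 4.97% in shGAA, against 0.678% to 1.87% in shScrambled. Pprc1 made up 86.5% to 90.9% in shGAA and 91.1% to 93.9% in shScrambled. The family's summed level overlapped between the groups, at 16.4 to 17.3 in shGAA and 15.6 to 18.4 in shScrambled.

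**Figure D3:**
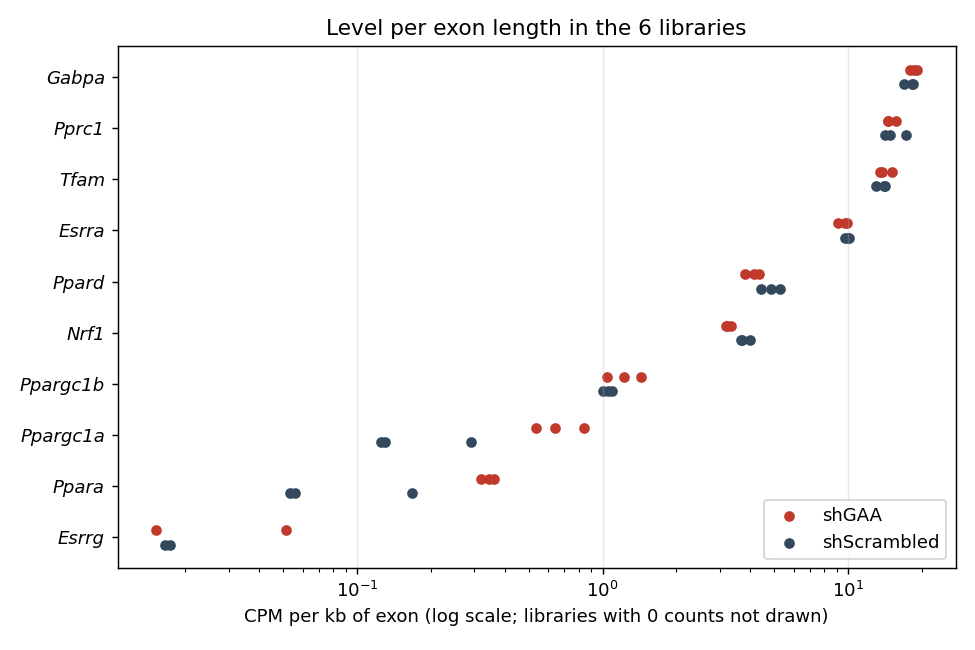
CPM per kilobase of exon (horizontal axis, log scale) of each member in the 3 shGAA libraries (red, upper points) and the 3 shScrambled libraries (dark, lower points), ordered by the shGAA mean. The order runs from Gabpa at 18.6 down to Esrrg, and Ppargc1a and Ppara are the members whose groups lie farthest apart.

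Genes that act with the coactivators differed in both directions. Of 32 partners and co-regulators 27 were tested, of which 9 rose, 2 fell and 16 had no call. The rises were 33.3% and the falls 7.41% of the tested partners, beside 18.5% and 19.7% of all tested genes. Signs were evenly split, with 14 above 0 and 13 below and a median log2 fold change of 0.02, against 0.01 over all tested genes. The phosphatidate phosphatase gene Lpin1, whose product is also a coactivator partner of PGC-1alpha, rose to 19.4 ± 1.37 CPM in shGAA, against 12.5 ± 1.81 CPM in shScrambled (0.63 ± 0.12, adjusted p = 0.000556). The p160 coactivator genes Ncoa2 and Ncoa1 rose by 0.41 ± 0.07 and 0.42 ± 0.09, and the arginine methyltransferase gene Carm1 by 0.25 ± 0.05. Carm1 overlaps Yipf2 on the opposite strand over 21.1% of its exonic bases. Med1, a Mediator subunit that nuclear receptors contact, fell to 100.5 ± 2.63 CPM in shGAA, against 128.6 ± 6.09 CPM in shScrambled (-0.36 ± 0.05, adjusted p = 7.62e-05).

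Among genes known to control Ppargc1a expression or activity, 35 of 36 were tested, of which 11 rose, 5 fell and 19 had no call, with a median of 0.05. The rises were 31.4% and the falls 14.3%, beside 18.5% and 19.7% of all tested genes. Hdac9, a class II deacetylase gene of the kind that represses MEF2 factors, rose to 27.7 ± 1.56 CPM in shGAA, against 14.1 ± 0.876 CPM in shScrambled (0.98 ± 0.10, adjusted p = 1.03e-06). The AMP kinase subunit gene Prkab2 rose by 0.43 ± 0.07, Nampt, which makes a precursor of the sirtuin cofactor NAD, by 0.33 ± 0.06, Mef2a by 0.27 ± 0.05 and Foxo3 by 0.55 ± 0.11. Some genes named from here on were picked after their values were seen, namely Mef2c, Creb1, Angptl4, Pdk4, Perm1, Cpt1b, Cd36, Slc2a4, Polrmt, Tfb1m, Tfb2m, Tmem8c, Id1, Myod1, Ucp1 and Cidea. Mef2c, of the same family as Mef2a and also listed among the myotube markers, fell by 0.64 ± 0.15 (adjusted p = 0.00346). Creb1, which encodes the factor that binds cyclic AMP response elements, stood at 58.9 ± 1.5 CPM in shGAA and 56.9 ± 2.70 CPM in shScrambled (0.05 ± 0.06, adjusted p = 0.580).

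Of 30 muscle genes known as targets of estrogen-related receptors and PPARs 23 were tested, of which 1 rose, 8 fell and 14 had no call, with a median of -0.10. The rise was 4.35% and the falls 34.8% of those tested, beside 18.5% and 19.7% of all tested genes. The summed level of the list was 2107 to 2159 CPM in shGAA and 2468 to 2591 CPM in shScrambled, a difference in means of -403 CPM, of which the lipase inhibitor gene Angptl4 alone made up -208 CPM. Without Angptl4 the sums were 1971 to 2013 CPM in shGAA and 2138 to 2224 CPM in shScrambled. The lipid droplet coat gene Plin2 fell by 0.32 ± 0.05 and lipoprotein lipase, Lpl, by 0.54 ± 0.10. The uncoupling protein gene Ucp2 fell to 7.27 ± 1.20 CPM in shGAA, against 11.5 ± 1.41 CPM in shScrambled, and citrate synthase, Cs, fell by 0.19 ± 0.05. Angptl4 had the lowest fold change of the list, at 138 ± 6.95 CPM in shGAA and 345.9 ± 92.8 CPM in shScrambled (-1.32 ± 0.22, adjusted p = 0.0118).

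The rise in this list was that of Fabp3, the muscle fatty acid carrier, with 57, 60 and 52 counts in shGAA and 26 counts in each shScrambled library (1.05 ± 0.20, adjusted p = 0.000570). It shares 37.3% of its 50-base stretches with other genes, foremost the pseudogene Fabp3-ps1, so its counts are uncertain. Over 19.6% of its exonic bases it also overlaps Zcchc17 and Gm10570 on the opposite strand. Pdk4, a kinase gene widely used as a readout of PPAR and ERR activity, stood at 13.9 ± 1.42 CPM in shGAA and 14.9 ± 1.78 CPM in shScrambled (-0.10 ± 0.13, adjusted p = 0.549). The 7 further targets, which include Cpt1b, Cd36 and Slc2a4, were too low to test, and so was the co-regulator gene Perm1, with 0 counts in every shGAA library and 3, 1 and 2 in shScrambled. Cpt1b overlaps Gm44502 on the same strand over 81.4% of its exonic bases and shares 78.6% of its 50-base stretches with other genes. Its low counts are therefore uncertain and need not mean low expression. The 8 falls were 5 without shGAA 2, and the 1 rise was 2 with scaling by library size alone and without shScrambled 3.

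All 27 nuclear genes listed as targets of NRF1 and GABP were tested, of which 1 rose, 9 fell and 17 had no call, with a median of -0.10. The rise was 3.7% and the falls 33.3%, beside 18.5% and 19.7% of all tested genes. Tomm70a, an import receptor of the outer membrane, fell to 126 ± 3.59 CPM in shGAA, against 202 ± 15.7 CPM in shScrambled (-0.68 ± 0.06, adjusted p = 1.56e-07). The cytochrome oxidase genes Cox5b and Cox7a2 fell by 0.34 ± 0.06 and 0.30 ± 0.07, the copper chaperone gene Cox17 by 0.34 ± 0.07 and the complex III gene Uqcrh by 0.21 ± 0.05. Cox5b shares 11.9% of its 50-base stretches with other genes, foremost Gm11273. The 9 falls were 5 without shGAA 3, and the 1 rise was 2 without shScrambled 1 and with scaling by library size alone.

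The machinery that copies and transcribes mitochondrial DNA, in which Tfam acts, had few calls. Of 21 genes tested, 0 rose, 2 fell and 19 had no call in the edgeR test, with a median of 0.00. The falls were 9.52% of the list, beside 19.7% of all tested genes, of which 61.8% had no call. At an unadjusted p under 0.05, 0 were higher and 3 lower, and the rises in DESeq2 also numbered 0, while leaving out shScrambled 1 gave 1. The falls were those of Lonp1, the matrix protease that degrades Tfam, by 0.17 ± 0.06 (adjusted p = 0.0289), and Ssbp1, which binds single-stranded DNA, by 0.23 ± 0.08 (adjusted p = 0.0312). The 2 falls were 0 in DESeq2, with scaling by library size alone, and without shGAA 1, shGAA 2, shGAA 3 or shScrambled 3, and 1 without shScrambled 1. The mitochondrial RNA polymerase gene Polrmt stood at 0.03 ± 0.07 on the log2 scale, and the transcription factor genes Tfb1m and Tfb2m at -0.13 ± 0.16 and -0.10 ± 0.10. Polrmt, Tfb1m and Tfb2m are also on the list of NRF1 and GABP targets and count in both lists. Of 9 fusion and fission genes 1 fell, Fis1, which encodes an outer-membrane protein of fission (-0.23 ± 0.05, adjusted p = 0.00259), and 8 had no call, among them Mfn2 (-0.04 ± 0.06) and Dnm1l (0.14 ± 0.06).

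**Figure D4:**
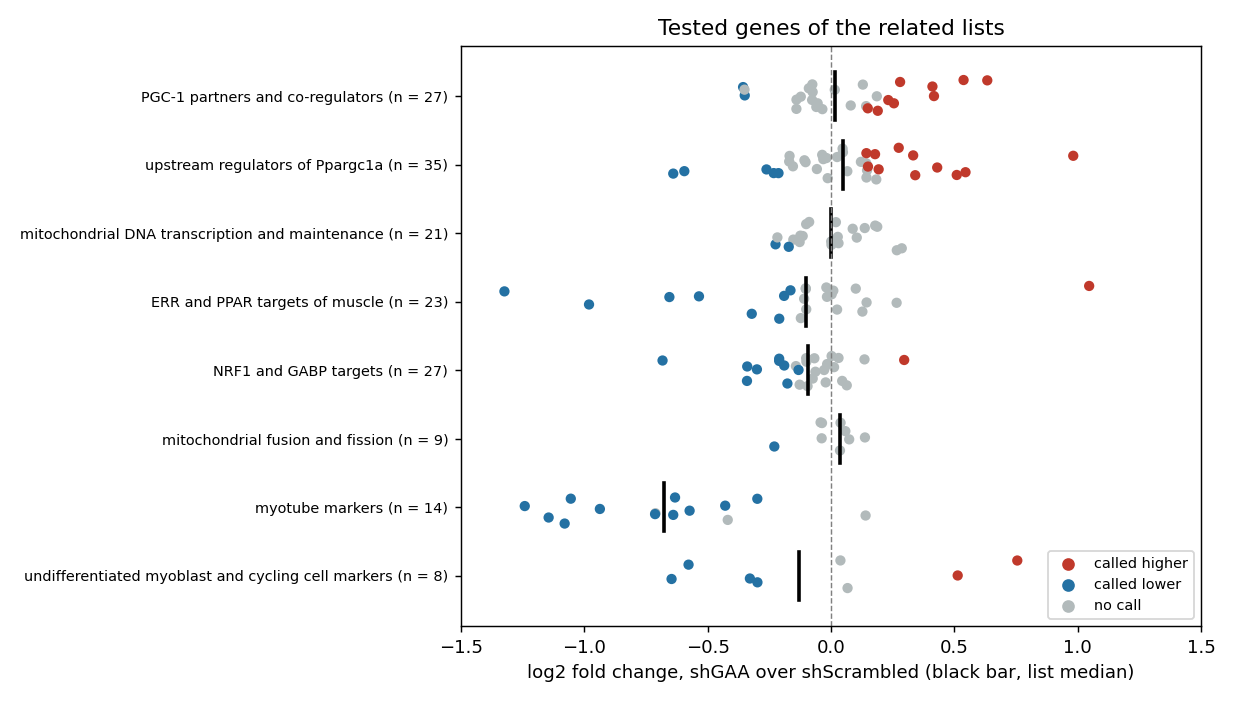
Log2 fold change of shGAA over shScrambled (horizontal axis) for each tested gene of 8 lists (rows), coloured by call, with the list median as a black bar. Genes that belong to several lists are drawn in each. Partners and upstream regulators have medians of 0.02 and 0.05, both target lists of -0.10, and myotube markers of -0.68.

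Markers of the cells themselves moved in the same comparison. Of 14 myotube markers 0 rose and 11 fell in the edgeR test, with a median of -0.68. The falls were 78.6% of these markers, beside 19.7% of all tested genes, and their summed level was 2299 to 2493 CPM in shGAA and 3155 to 3474 CPM in shScrambled. At an unadjusted p under 0.05, 0 were higher and 11 lower, and DESeq2 called 0 higher and 11 lower, while 1 rose without the filter, with scaling by library size alone, without shGAA 1 and without shScrambled 1. Actn3 fell by 1.14 ± 0.05 and the fusion gene Tmem8c (an earlier symbol of Mymk) by 1.08 ± 0.17. Of 8 tested myoblast and cycling cell markers 2 rose, 4 fell and 2 had no call. These are 25% higher and 50% lower, beside 18.5% and 19.7% of all tested genes. The cycle genes Ccnb1 and Cdk1 fell by 0.65 ± 0.06 and 0.58 ± 0.06, while Id3 and Myf5 rose by 0.75 ± 0.08 and 0.51 ± 0.10. Their relatives Id1 and Myod1 had no call, at 0.07 ± 0.10 (adjusted p = 0.625) and 0.04 ± 0.07 (adjusted p = 0.684). Ccnb1 shares 23.4% of its 50-base stretches with other genes, foremost Ccnb1-ps, so its counts are uncertain. In bulk RNA fewer cells of a type and less RNA per cell cannot be told apart, and the part of these markers in the members' differences was not tested. Adipocyte markers, of interest because brown fat expresses Ppargc1a strongly, were at or near 0. Of 10, 7 had 0 counts in all libraries, Ucp1 and Cidea among them, and together they had 4 counts in each shGAA library and 1 to 5 in shScrambled. Leukocyte and endothelial markers summed to 2.91 to 3.37 CPM in shGAA and 4.38 to 5.75 CPM in shScrambled. Of 10, 2 were tested and 1 fell, or 50%, beside 19.7% of all tested genes. This was Cdh5 (-1.35 ± 0.46, adjusted p = 0.0280 in the edgeR test), whose libraries overlapped between the groups. The falls of this list numbered 0 to 2 over 13 alternative fits.

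The 5 genes most like Ppargc1a across the 6 libraries were taken by the root-mean-square difference of centred log2 CPM, so fold changes and an order of libraries close to those of Ppargc1a follow from the choice. They were Oas3 (0.168), an interferon-induced enzyme gene, Tmem44 (0.238), Phf11d (0.272), the peptide transporter gene Tap1 (0.275) and the p53 effector gene Perp (0.322). Oas3 had 109, 80 and 117 counts in shGAA and 25, 18 and 40 counts in shScrambled. Its log2 fold change was 1.81 ± 0.22, and those of the other 4 lay between 1.53 and 2.07. Tmem44 passed the filter on low counts through shGAA, with 3 shGAA and 0 shScrambled libraries over its level.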

How the data were processed

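RNA was sequenced from 6 C2C12 libraries. The authors deposited 1 table of raw counts per gene symbol, and the submitters' processing notes name mm10, FastQC, HISAT2 2.1.0, Subread and edgeR. For the annotation, strand setting and multi-mapping reads, nothing is given in the sources used. From the deposited counts, genes were kept by filterByExpr (minimum count 10, minimum total 15) and scaled by TMM. They were tested with edgeR 4.0.16 in R 4.3.3 (robust quasi-likelihood F-test, group as the only term, Benjamini-Hochberg over 11801 genes, called under 0.05). Log2 fold changes set shGAA over shScrambled, and the SE is the fold change divided by the square root of F. CPM use TMM-scaled library sizes, and likeness used a prior count of 2. The code was tested on simulated data. Alternatives included DESeq2 1.42.0, limma-voom (limma 3.58.1), other scalings, no filter, a replicate block and leaving out each library. The members and lists were chosen with earlier results of these data known, and no list was tested as a set. Named list genes were drawn from the called ones with the smallest adjusted p, up to 5 per list, and not all of those are named. Where a list had fewer than 2 calls, genes with the highest control CPM were added. The genes said above to be picked after their values were seen are exceptions. Exonic lengths, overlaps and shared 50-base stretches come from GENCODE M21 (GRCm38), and 3 list symbols were matched through RefSeq synonyms. Intervals cover counting error only.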

Additional observations from a re-analysis of the deposited data

How the results depend on the processing

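The 2 rises among the members, Ppargc1a and Ppara, were called in all 13 alternative fits, with log2 fold changes of 1.66 to 2.38 and 1.58 to 2.57. Except for DESeq2 and the fit without the filter, these fits used the same filter, which both genes passed through shGAA. All fits draw on the same libraries, so their agreement is not independent support. The 2 falls, Ppard and Nrf1, were 0 with scaling by library size alone and in DESeq2, and 0 to 2 when 1 library was left out, namely 0 without shGAA 1, shGAA 3 or shScrambled 1 and 1 without shScrambled 3. With the replicate number as a block they were 1, since Ppard then had an adjusted p of 0.0545. The titles share numbers 1 to 3 between groups, but deviations of same-numbered libraries correlated at -0.0394, 0.0558 and -0.0109 across genes, so the numbers were not taken as pairs. The block changed no other call among the members. Signs changed only for members without a call, for Pprc1 to 0.00049 with scaling by library size alone. With 1 library left out, Pprc1 ranged from -0.10 to 0.043 (above 0 without shScrambled 1) and Tfam from -0.0085 to 0.076 (below 0 without shGAA 1). The cause of these changes was not tested. Over all genes, higher calls numbered 2182 and ranged from 1563 in DESeq2 to 2809 with scaling by library size alone, and lower calls numbered 2330 and ranged from 1858 in DESeq2 to 2514 without the filter. Scaling by library size alone moved the median log2 fold change by 0.05. Depth limits Ppara, Ppargc1a and Esrrg, for which counts of 0 to 54 per library stand behind the values. Ppargc1b, without a call, is limited as well, with 39 to 56 counts per library.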
